A study of Mus musculus with 2 samples.

Results

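Rab GTPases are the largest family of small Ras-like GTPases and direct the traffic of vesicles between the membrane compartments of the cell. The genes described here are the protein-coding loci of the RefSeq annotation of the mouse build GRCm38 (mm10) whose symbol is Rab followed by a number and at most 1 letter from a to d. That rule gave 59 of 21900 protein-coding loci, and the clusters on their strand made up 413 of the 123349 UPF1 clusters in the data. UPF1, the RNA helicase of nonsense-mediated decay (NMD), was mapped by enhanced crosslinking and immunoprecipitation (eCLIP) in mouse neural progenitor cells of the cortex, grown in DMEM/F12 with B27. There was 1 immunoprecipitate and 1 input library, both from cells of genotype Upf2fl/fl, that is with loxP-flanked alleles of the NMD factor Upf2. MOCK stands in both library names without explanation, and nothing says whether the cells came from 1 animal or from a pool. With 1 library of each kind, the data hold no spread between cultures, and no test between conditions could be made.

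A Rab protein switches between an inactive form bound to GDP and an active form bound to GTP. Exchange factors (GEFs) load GTP, the active form recruits effectors such as tethers and motors to a membrane, and GTPase-activating proteins (GAPs), mostly of the TBC domain type, return it to the GDP form. Lipid (prenyl) groups anchor Rab proteins in the membrane, and GDP dissociation inhibitors (GDIs) extract the inactive protein for another round. UPF1 binds many messenger RNAs, mostly along their 3′ untranslated regions, and becomes an active part of decay when translation stops in an unfavourable place.

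A cluster is a stretch of RNA where immunoprecipitate reads piled up, and the authors' file gives each one a log2 fold of immunoprecipitate over input and a −log10 p. The reads behind each value were reconstructed from the steps in those columns, and ranges in square brackets are exact Clopper-Pearson 95% intervals of the log2 fold from these reads. A cluster was called enriched when its log2 fold and its −log10 p were both at least 3. Intervals cover counting error in these libraries only. Where the input count is 1, there may have been no input read at all. Distances are genomic, introns included, from the midpoint of a cluster to the annotated 3′ end of the locus. Exons and untranslated regions were not annotated in the tables used here, so no cluster was placed in one.

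The Rab clusters for which transcript-strand sequence was at hand lie at the 5′ end of their genes or under a microRNA gene. They are shown because their sequence was at hand, and none of them was enriched. The Rab34 cluster lies 3483 nt from the 3′ end of a locus of 3767 nt, so it also counts as within 5000 nt. The first 30 bases of each 5′ cluster are given from its 5′ side, from the RefSeq promoter windows of GRCm38.p6, with CG dinucleotides in capitals.
Rab34: aggagggggttggCGagggcCGCGctgaag
Rab12: cccttcctctactccCGgCGgCGgCGgCGg
Rab6b: tcccctccctgctccttcacCGcttcctcc
Rab43: gactgtactgacaggctaggaggtgttggt

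The Rab34 stretch lies at chr11:78188665-78188694 on the plus strand, and its cluster had a log2 fold of 0.78 from 7 immunoprecipitate and 2 input reads. The Rab12 stretch, at chr17:66519653-66519682 on the minus strand, is 80.0% G or C and its cluster had a log2 fold of -0.61. The Rab6b stretch, at chr9:103112087-103112116 on the plus strand, is 66.7% G or C, and its cluster had a log2 fold of 0.68. Rab43 was the one of the 4 without a CG in its stretch, at chr6:87811938-87811967 on the minus strand, and its cluster had a log2 fold of 1.30 from 5 reads against 1. All 4 folds were below the threshold of 3.

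Rab4b, a Rab of early and recycling endosomes, contains the microRNA gene Mir3101 on the same strand. A cluster at chr7:27176031-27176126 covers the whole 5p arm of that microRNA and part of the 3p arm. The mature RefSeq sequences follow, with the seed (bases 2 to 8) in capitals.
mmu-miR-3101-5p: gGUACCAUugacuaaagcuag
mmu-miR-3101-3p: uAGCUUUGguggauggucuuu
The cluster had a log2 fold of 0.78 from 7 immunoprecipitate and 2 input reads, so it was not enriched. Reads from Rab4b RNA and from the microRNA precursor cannot be told apart there.

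UPF1 was enriched on many Rab RNAs. Of the 59 loci, 41 had at least 1 cluster (69.5%, Wilson 95% interval 56.9 to 79.7), against 44.3% of all 21900 protein-coding loci. Of these 41 genes, 26 had an enriched cluster (63.4%, Wilson 95% interval 48.1 to 76.4), against 34.0% of the 9704 protein-coding genes with a cluster. Counted over clusters, 128 of 413 were enriched (31.0%), against 11.7% of the 119711 clusters in protein-coding genes. The Rab genes are part of these backgrounds. The file holds no expression level, so an abundant and a strongly bound RNA cannot be told apart by the presence of a cluster, and a gene without a cluster is not shown to be unbound. The enriched call also depends on read depth. The lowest number of immunoprecipitate reads in an enriched cluster was 24, in Rab genes and over all protein-coding genes with reconstructed counts. The part of RNA abundance in these shares was not tested.

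The folds of the Rab genes are described next. The median of the highest log2 fold per gene was 3.98 over the Rab genes (range 0.56 to 7.09) and 2.56 over all protein-coding genes with a cluster. In most Rab genes, Rab1b and Rab7 among them, the highest cluster had an input count of 1. At that count the log2 fold follows the immunoprecipitate reads alone, so ranks by highest fold partly follow read depth. With a length-weighted mean per gene, the medians were 2.19 and 1.30. Among enriched clusters alone, which had all passed a log2 fold of 3, the median log2 fold was 4.38 in Rab genes and 4.29 in all protein-coding genes. An enriched Rab cluster held a median of 73.5 immunoprecipitate reads and 2 input reads, against 63 and 1 over all protein-coding genes. In Rab1b, Rab7 and Rab2b, 3 of the 41 genes, every cluster was enriched, against 2.01% of all protein-coding genes with a cluster.

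Thinner evidence set part of the count. Of the 128 enriched Rab clusters, 58 rested on an input count of 1 (45.3%, against 50.7% over all protein-coding genes). With such clusters not called, 70 Rab clusters passed, against 5.89% of the background clusters, and 18 Rab genes, against 21.7%. The genes that lost their call were Rab12, Rab14, Rab21, Rab23, Rab30, Rab39b, Rab40c and Rab43. At a log2 fold of at least 4, 19 Rab genes and 86 clusters passed, against 24.4% of the background genes and 7.31% of the background clusters. At a −log10 p of at least 5 it was 21 genes and 104 clusters, against 26.1% and 8.91%. The Rab shares (43.9, 46.3 and 51.2% of genes) lay above those of all protein-coding genes under each of these 3 rules. Counted over all 59 loci, with or without a cluster, 44.1% had an enriched cluster, against 15.1%.

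Genes with more clusters had more chances to hold an enriched one, so the shares are also given by number of clusters. Among Rab genes with 1 to 4 clusters, 2 of 12 had an enriched one (16.7%), against 9.56% of all protein-coding genes with that number. With 5 to 9 clusters it was 10 of 13 (76.9%) against 40.8%. With 10 to 19 it was 8 of 10 (80.0%) against 57.7%, and with 20 or more 6 of 6 against 62.1%. The Rab share was the higher of the pair in each of the 4 classes, each of which holds few Rab genes. Across the 41 genes, the Spearman correlation between number of clusters and highest log2 fold was 0.64, close to the 0.62 over all protein-coding genes, where points share the 2 libraries and their depth.

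**Figure D1:**
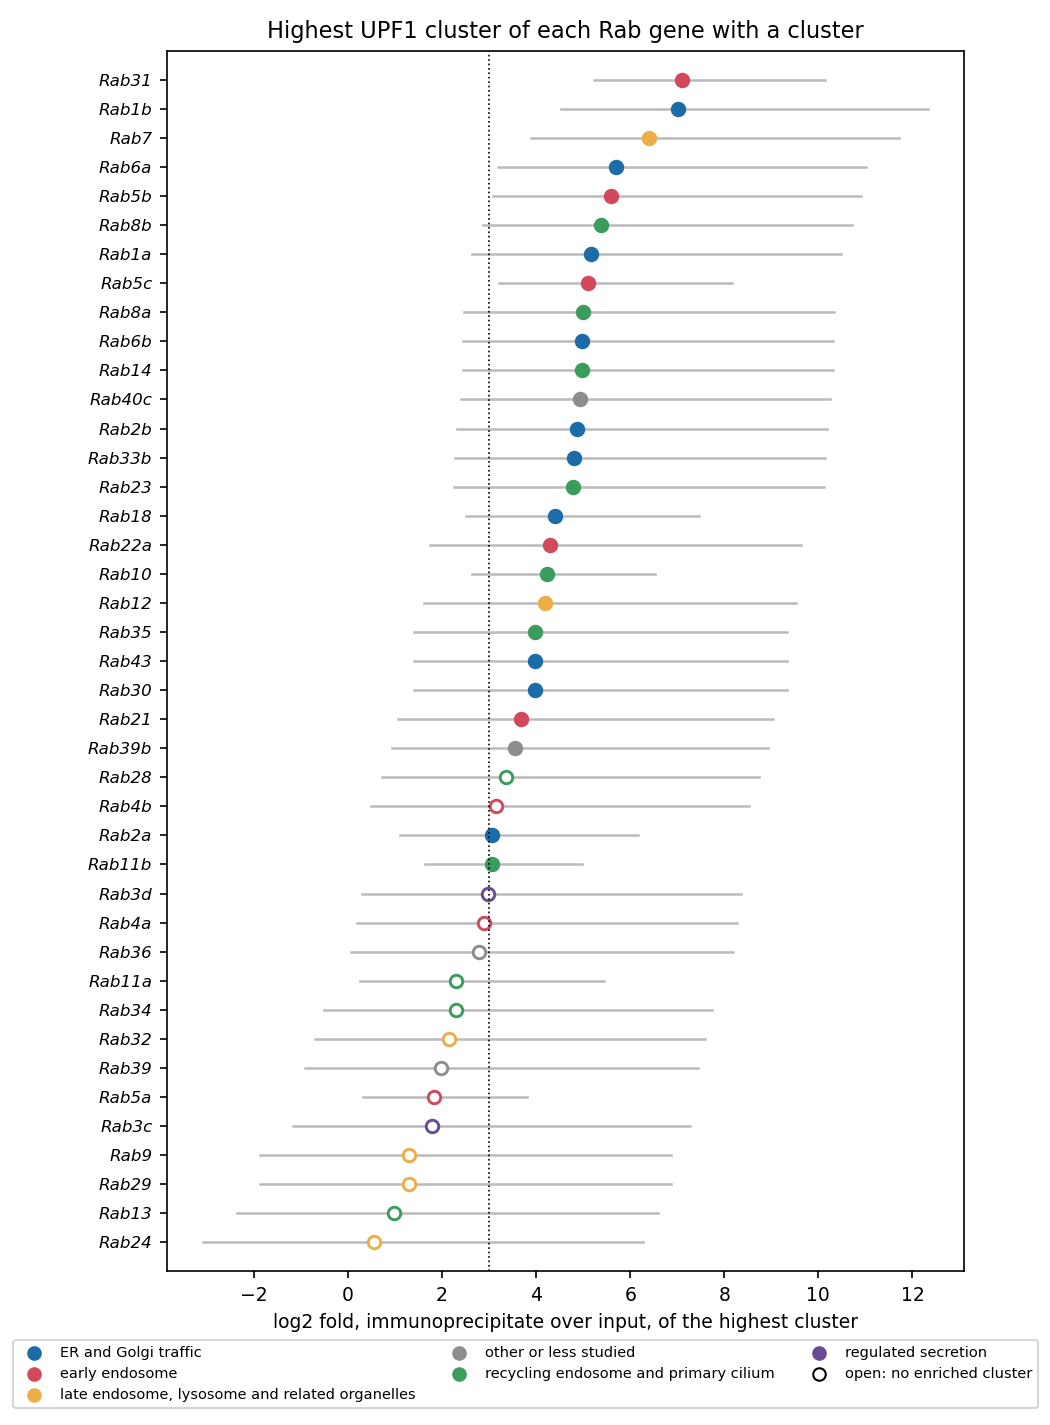
Each point is the highest UPF1 cluster of 1 of the 41 Rab genes with a cluster, as log2 fold of immunoprecipitate over input (x axis), coloured by class, with the exact 95% interval from the reads of that cluster as a line. Rab31, Rab1b and Rab7 stand at the top with log2 folds from 6.39 to 7.09; filled points are the 26 genes with an enriched cluster and the dotted line is the threshold of 3.

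The 3′ end carried nearly all of the enrichment. Within 5000 nt of the annotated end lay 231 of the 413 Rab clusters (55.9%, against 31.4% over all protein-coding genes). Of these 231, 123 were enriched (53.2%, Wilson 95% interval 46.8 to 59.6), against 34.4% over all protein-coding genes. Farther inside, 5 of 182 Rab clusters were enriched (2.75%, interval 1.18 to 6.27), against 1.39%. Put the other way, 123 of the 128 enriched Rab clusters lay within 5000 nt (96.1%, against 91.9%). Enriched clusters beyond 5000 nt occurred in 4 of the 41 genes, against 3.87% of all protein-coding genes with a cluster. In the other 22 of the 26 genes with an enriched cluster, every enriched cluster lay in that window. Rab loci with a cluster were somewhat shorter than the background, with a median length of 22669 nt against 29236 nt. The Rab24 (2758 nt) and Rab34 (3767 nt) loci are shorter than the window, so all their clusters, none enriched, fall within it. The part of locus length in the position of the clusters was not tested.

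By distance class, the Rab share was flat up to 5000 nt and then dropped. It was 50 of 96 clusters in the last 1000 nt (52.1%, against 35.8% in all protein-coding genes), 44 of 81 from 1000 to 2000 nt (54.3% against 40.1%) and 29 of 54 from 2000 to 5000 nt (53.7% against 28.4%). From 5000 to 10000 nt, 1 of 53 Rab clusters was enriched (1.89%, Wilson 95% interval 0.33 to 9.94), an interval that includes the 8.27% of all protein-coding genes. From 10000 to 20000 nt it was 1 of 46 (2.17% against 1.61%) and beyond 20000 nt 3 of 83 (3.61%, interval 1.24 to 10.1, against 0.48%). Since clusters within a gene depend on each other, the Wilson intervals over clusters are likely too narrow.

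**Figure D2:**
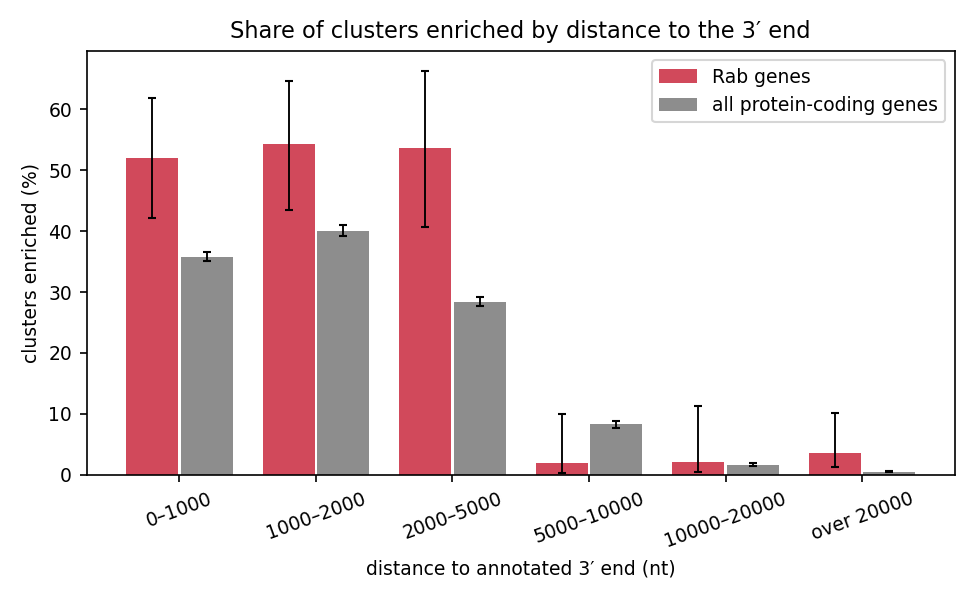
Bars give the percentage of clusters that were enriched (y axis) by genomic distance to the annotated 3′ end (x axis), for the Rab genes and for all protein-coding genes; error bars are Wilson 95% intervals. The Rab bars stand at 52.1, 54.3 and 53.7% up to 5000 nt and at 1.89% in the next class.

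Rabs of traffic between endoplasmic reticulum and Golgi apparatus were the class with an enriched cluster in every gene that had a cluster. It was 10 of 10, against 34.0% of background genes. Of the 12 loci, Rab19 and Rab33a had no cluster. The 10 of 10 depended on the cut. Rab2a, Rab30 and Rab43 lost their call at a log2 fold of at least 4, and also at a −log10 p of at least 5. Rab30 and Rab43 lost it as well where an input count of 1 was not called. Together the genes of this class held 47 enriched of 144 clusters (32.6%), about the 31.0% of the whole family, against 11.7% over all protein-coding genes. Classes here follow textbook roles and were set with earlier results of these data known.

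Rab1b, which controls the step from endoplasmic reticulum to Golgi, had 11 clusters and all 11 were enriched. Its highest, at chr19:5099481-5099574, held 265 immunoprecipitate reads and 1 input read, a log2 fold of 7.03 [4.54 to 12.33], and lay 320 nt from the 3′ end. The clusters covered 765 nt, and the gene ranked 54 of 9704 by highest log2 fold. Its close relative Rab1a had 9 of 11 clusters enriched, the highest at chr11:20225246-20225281 with 73 reads against 1 and a log2 fold of 5.17 [2.64 to 10.49]. Both genes of the Rab1 pair were thus bound along the last part of the locus.

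Rab6a and Rab6b, which act in retrograde traffic at the Golgi, held many clusters of mixed height. In Rab6a, 5 of 18 were enriched, and the highest (chr7:100639778-100639867) had 105 reads against 1, a log2 fold of 5.69. Another 4 Rab6a clusters had a −log10 p between 5.35 and 11.08 at log2 folds of 1.63 to 2.80, with 6 to 18 input reads each. These 4 missed the fold threshold alone. In Rab6b, the form known as abundant in neurons, 9 of 28 were enriched, with a highest log2 fold of 4.98 from 64 reads against 1, and 1 of the 9 lay 14048 nt from the end at a log2 fold of 3.56.

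Rab2a and Rab2b, which act in the early secretory pathway, had different layouts. All 4 clusters of Rab2b were enriched, up to a log2 fold of 4.86 (59 reads against 1), and they lay 496 to 1219 nt from the end. Rab2a had 26 clusters and 1 enriched one, at chr4:8564099-8564285, 43510 nt inside the locus, with 34 reads against 2 and a log2 fold of 3.06. The deepest Rab2a cluster near the end had 80 reads against 6 and a −log10 p of 6.27, and missed the call with a log2 fold of 2.71.

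The other members of the class had fewer enriched clusters. Rab33b, a Golgi Rab with a role in autophagy, had 4 of 5 enriched, the highest at a log2 fold of 4.81 from 57 reads against 1. Rab18, which acts at the endoplasmic reticulum and lipid droplets, had 2 of 11, the highest at 4.40 [2.51 to 7.47] from 86 reads against 2. The Golgi Rabs Rab30 and Rab43 had 1 each, both from 32 reads against 1 and a log2 fold of 3.98. The Rab30 cluster lay 7692 nt from the end, and none of its 23 clusters lay within 5000 nt.

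Among Rabs of the early endosome, 5 of the 8 genes with a cluster had an enriched one, against 34.0% of background genes. Of their clusters, 38 of 76 were enriched (50%), against 11.7% over all protein-coding genes. Most of the 38 lay in Rab31 (17), Rab5b (9) and Rab5c (8). Rab17 had no cluster. Rab31, also known as Rab22b, which acts between the Golgi and endosomes, led all Rab genes: 17 of its 22 clusters were enriched. Its highest cluster, at chr17:65653559-65653725 on the minus strand, held 555 immunoprecipitate reads and 2 input reads, a log2 fold of 7.09 [5.23 to 10.14] with a −log10 p of 92.0. All 15 of its clusters within 5000 nt were enriched. Their midpoints lay between 735 and 2340 nt from the end, and with the 2 inside they covered 1377 nt in 10 unbroken stretches, the longest of 289 nt. The gene ranked 49 of 9704 by highest log2 fold and 30 by enriched length. Unusually for the family, 2 enriched clusters lay deep in the locus, 46306 nt (log2 fold 3.98) and 65794 nt (4.93) from the end.

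The Rab5 genes, whose proteins drive the fusion of early endosomes, differed among themselves. Rab5b had 9 of 15 clusters enriched, with 98 reads against 1 in the highest, a log2 fold of 5.59 [3.08 to 10.91]. Rab5c had 8 of 9 enriched, with 139 reads against 2 and a log2 fold of 5.09 [3.21 to 8.15]. In Rab5a none of 6 was enriched: its highest had 29 reads against 4, a log2 fold of 1.83 and a −log10 p of 2.04. Rab5a thus stood below both relatives in these libraries.

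Rab22a, of early and recycling endosomes, had 3 of 8 clusters enriched, all within 288 nt of the annotated end, and the highest (chr2:173702079-173702158) had 40 reads against 1 and a log2 fold of 4.30. Rab21, known from the endocytosis of integrins, had 1 of 7, 59 nt from the end, with 26 reads against 1 and a log2 fold of 3.68. Rab4b had 7 clusters and none enriched, its highest at a log2 fold of 3.15 from 18 reads against 1, which missed on p with a −log10 p of 2.16.

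**Figure D3:**
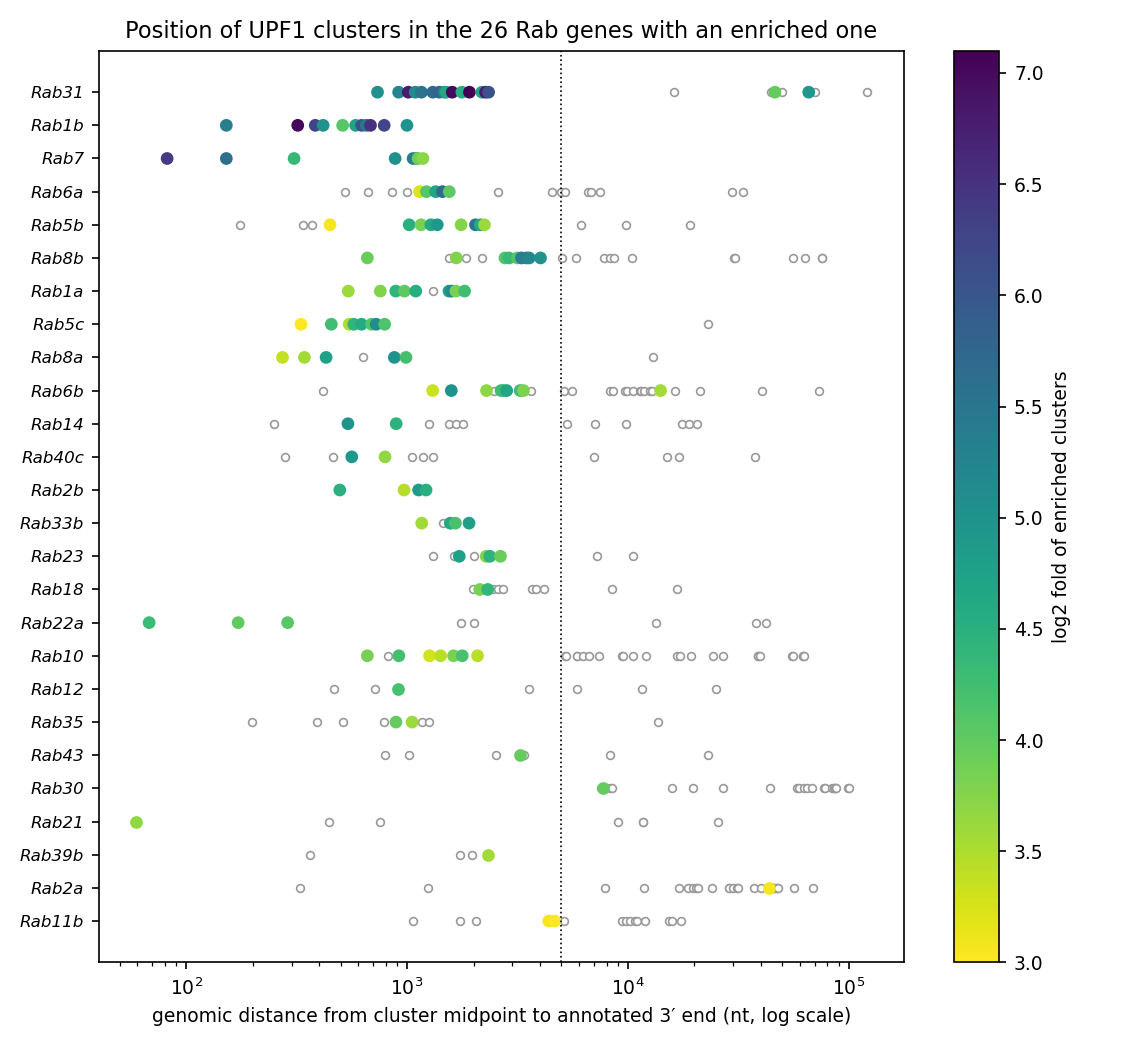
Clusters of the 26 Rab genes with an enriched one are placed by genomic distance to the annotated 3′ end (x axis, log scale), with 1 gene per line. Coloured points are enriched clusters, shaded by log2 fold, and open points are the others; left of the dotted line at 5000 nt lie 123 of the 128 enriched clusters, and the 5 beyond it belong to Rab31, Rab6b, Rab30 and Rab2a.

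Rabs of the recycling endosome and of the primary cilium had an enriched cluster in 7 of 11 genes, against 34.0% of background genes. Of their 137 clusters, 31 were enriched (22.6%), against 11.7% over all protein-coding genes. The primary cilium is the antenna-like organelle through which Hedgehog signals pass in neural progenitors. Rab15 and Rab25 had no cluster. Rab8b and Rab8a, which act in outward traffic and in building the cilium, had 9 of 25 and 5 of 7 clusters enriched. The highest Rab8b cluster had 85 reads against 1 and a log2 fold of 5.39 [2.87 to 10.71]. That of Rab8a had 65 reads against 1 and a log2 fold of 5.00 [2.47 to 10.32]. The pair had like highest folds, and Rab8b carried more clusters that did not pass.

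Rab10, of exocytic traffic, had the most clusters of the family, 32, of which 7 were enriched, with 114 reads against 3 in the highest and a log2 fold of 4.22 [2.64 to 6.52]. All 7 also lie under the annotated locus Rab10os, but on the strand of Rab10; with clusters in 1 locus only, Rab10 was lost and 25 Rab genes and 121 of 394 clusters passed, against 32.8% of the background genes and 11.6% of the background clusters. Rab23, an inhibitor of Hedgehog signalling in the mouse neural tube, had 4 of 9 enriched, up to a log2 fold of 4.78 from 56 reads against 1. Rab14, between Golgi and endosomes, had 2 of 13, up to 4.98 from 64 reads against 1. Rab35, of fast endosomal recycling, had 2 of 9, up to 3.98 from 32 reads against 1.

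The Rab11 pair, the classical markers of recycling endosomes, had few enriched clusters. Rab11b had 2 of 15 clusters enriched, the highest at a log2 fold of 3.06 from 68 reads against 4, and Rab11a had none of 11, the highest at 2.30 from 20 reads against 2. Rab28, known from cilia, had 12 clusters and none enriched. Its highest, with 21 reads against 1, reached a log2 fold of 3.37 but a −log10 p of 2.59, which made it the nearest gene outside. The gene nearest to the p threshold on the inside was Rab39b, with 24 reads against 1, a log2 fold of 3.56 and a −log10 p of 3.02. A difference of 3 reads separates the one from the other.

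Rabs of late endosomes, lysosomes and related organelles had clusters in 6 of 10 loci. Enriched ones occurred in 2 of these 6, against 34.0% of background genes. Of their 24 clusters, 9 were enriched (37.5%, against 11.7% over all protein-coding genes), 8 of them in Rab7. Rab20, Rab38, Rab7b and Rab9b had no cluster. Rab7, which brings late endosomes to lysosomes, had 8 clusters, all enriched, covering 482 nt. Its highest, at chr6:87999157-87999220 and 82 nt from the end, had 171 reads against 1 and a log2 fold of 6.39 [3.90 to 11.71], rank 163 of 9704. The Rab7 cluster with the most reads, 721 against 27, had the lowest log2 fold of the 8, 3.71 [3.16 to 4.33]. Rab12, which sends membrane receptors towards degradation, had 1 of 7 enriched, at a log2 fold of 4.19 from 37 reads against 1.

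Rabs of regulated secretion had few clusters. Of 8 loci, Rab26, Rab27a, Rab27b, Rab37, Rab3a and Rab3b had no cluster, among them the Rab3 forms known from synaptic vesicles. The other two, Rab3c and Rab3d, had 6 clusters. Of these 6, 0 were enriched, so the share may be as high as 50% (3 counts of the total), which includes the 11.7% of the background clusters. Their highest log2 folds were 1.78 from 7 reads against 1 and 2.98 from 16 reads against 1. Without an expression level, low RNA and low binding cannot be told apart here.

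Of the remaining 7 less studied loci, Rab40b, Rab42 and Rab44 had no cluster. Rab40c, a Rab with a domain for ubiquitin ligases, had 2 of 11 clusters enriched, up to a log2 fold of 4.93 from 62 reads against 1. Rab39b, known from neurons, had 1 of 4, the borderline cluster named above. Rab36 had 9 clusters and none enriched, the highest at 2.78 from 14 reads against 1.

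In all, 15 Rab genes had clusters but no enriched one. Their highest log2 folds ran from 0.56 (Rab24) to 3.37 (Rab28), with a median of 2.15, and they had a median of 3 clusters. Besides Rab28, Rab4b, Rab36, Rab11a, Rab5a, Rab3c and Rab3d, these were Rab4a, Rab34, Rab32, Rab39, Rab9, Rab29, Rab13 and Rab24. In 14 of them the highest cluster held fewer than 22 immunoprecipitate reads, and Rab5a was the exception with 29. At an input count of 1, the cluster of Rab39b passed with 24 reads and that of Rab28 missed with 21.

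**Figure D4:**
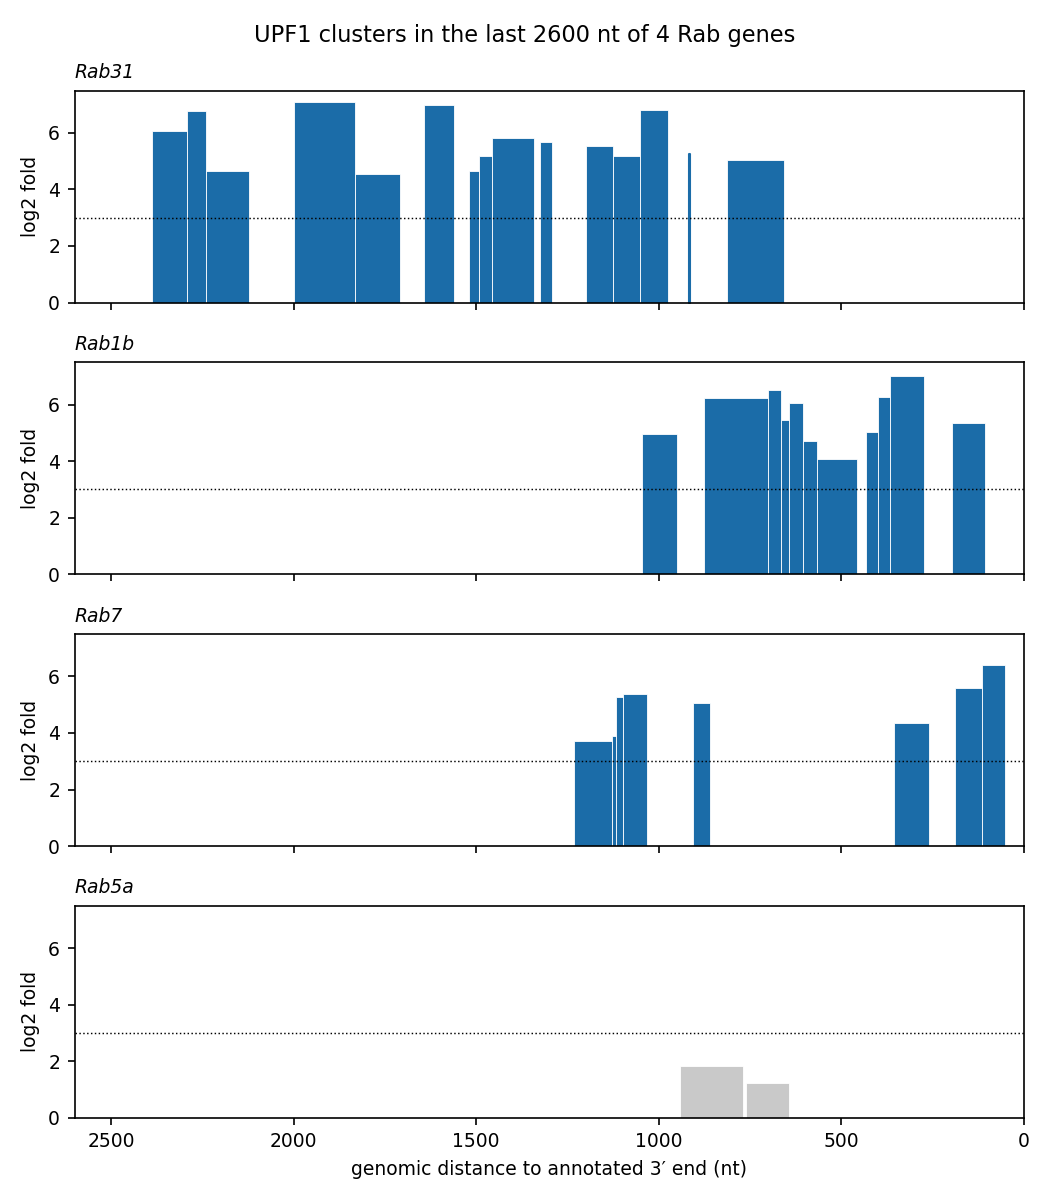
Clusters in the last 2600 nt of Rab31, Rab1b, Rab7 and Rab5a are drawn to scale by genomic distance to the annotated 3′ end (x axis), with the log2 fold as height (y axis) and the threshold of 3 as a dotted line. Every cluster drawn in the first 3 genes is enriched (blue), with maxima of 7.09, 7.03 and 6.39, and the 2 of Rab5a, at up to 1.83, are not (grey).

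Single clusters are too thin to separate related genes: in 10 pairs of close relatives, the intervals of the highest clusters overlapped in all 10. The reads of all clusters within 5000 nt of the end were therefore also pooled per gene, a summary chosen after the data had been seen. Of the 231 clusters, 6 gave no read counts and were left out, 5 of them with folds at or below 0. The clusters were called separately on immunoprecipitate reads and differ in number and length between genes, so the pooled value describes the called stretches and not the whole 3′ end. Touching clusters may share reads, so these intervals are likely too narrow, and intervals that lie apart are a description of these 2 libraries and not a test.

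On the pooled scale, Rab31 led with 4210 reads against 44, a log2 fold of 5.56 [5.13 to 6.02], and its relative Rab22a stood at 3.43 [2.42 to 4.66]. The Rab22a pool left out a cluster without read counts (log2 fold 2.39) and the clusters at and past its annotated end, described below. Among these, the cluster that crosses the end had 64 reads against 2 and a log2 fold of 3.98. Rab1b had 3315 reads against 45 and a log2 fold of 5.18 [4.76 to 5.64], above Rab1a at 3.96 [3.32 to 4.68]. In both pairs the intervals lay apart. The pooled stretches differed in size between Rab31 (15 clusters, 1236 nt) and Rab22a (4 clusters, 464 nt). They were near in size in Rab1b (11 clusters, 765 nt) and Rab1a (11 clusters, 734 nt). The mean log2 fold per cluster was 5.69 in Rab31, 3.63 in Rab22a, 5.61 in Rab1b and 3.97 in Rab1a. Rab5a, with 53 reads against 9, stood at 1.53 [0.50 to 2.74], and the intervals of Rab5b (3.82 [3.18 to 4.54]) and Rab5c (4.27 [3.69 to 4.92]) lay wholly above it. Here 2 clusters (291 nt) were pooled in Rab5a, 12 (812 nt) in Rab5b and 8 (345 nt) in Rab5c, with mean log2 folds of 1.54, 3.75 and 4.15. The intervals overlapped for Rab2a and Rab2b, Rab4a and Rab4b, Rab5b and Rab5c, Rab6a and Rab6b, Rab8a and Rab8b, and Rab11a and Rab11b. Overlap does not show that these pairs were bound alike: the Rab2b value lay 1.27 above that of Rab2a, with wide intervals for both.

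**Figure D5:**
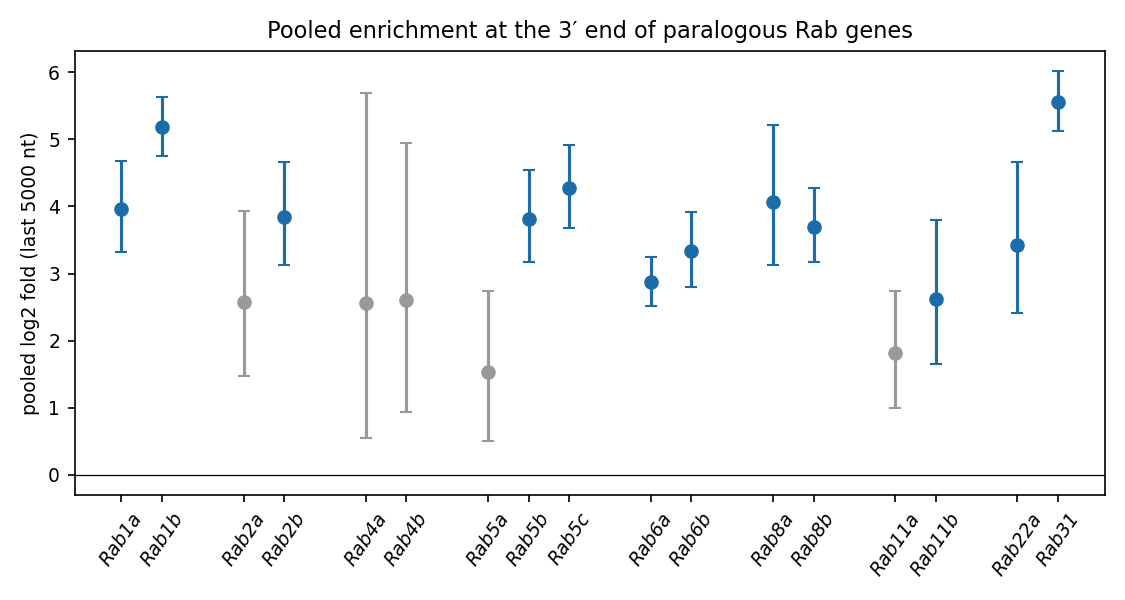
Points give the pooled log2 fold of immunoprecipitate over input (y axis) from the reads of all clusters within 5000 nt of the 3′ end, for groups of closely related Rab genes; bars are exact 95% intervals for counting error. Blue genes have an enriched cluster in that window and grey ones do not; Rab5a at 1.53 lies below Rab5b and Rab5c, and Rab31 at 5.56 above Rab22a.

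Of the machinery that runs the Rab cycle, 51 of the 109 genes of 4 lists with a cluster had an enriched one (46.8%, against 34.0% of all protein-coding genes with a cluster). The differences between these lists were not tested. In the group for prenylation and recycling, 4 of 6 genes with a cluster had an enriched one, among them the GDI Gdi2 (highest log2 fold 5.13), the escort protein Chm (3.56) and Rabif (3.33). Rabggta and Rabggtb, the subunits of the enzyme that attaches the prenyl groups, had highest log2 folds of 1.56 and 0.56. Among TBC-type GAPs, 17 of 32 had one (53.1%, against the 34.0% of all protein-coding genes), led by Evi5 (5.85), Rabgap1 (5.45), Tbc1d4 (5.42), Evi5l (5.35) and Tbc1d9b (5.02). Rabgap1 acts on Rab6, and Tbc1d4 on the Rabs of glucose transporter vesicles.

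Among GEFs, 9 of 32 had an enriched cluster (28.1%), below the 34.0% of all protein-coding genes with a cluster, so the list did not exceed the background. The highest of the 9 were Gapvd1 (5.53) and Rin2 (5.30), which activate Rab5, Dennd2a (5.35), Dennd1a (4.91), which activates Rab35, and Mon1b (4.81), which acts on Rab7. Among effectors it was 21 of 40 (52.5%, against 34.0%), led by the scaffold Erc1 (5.58), the motor Myo5a (5.39), the Rab1 tether Uso1 (5.22), the Rab5 effector Rbsn (5.11) and Vps39 (5.02), part of the tether that works with Rab7. The share of single clusters that were enriched lay near or below the background in these lists: 7.19% in GEFs and 8.73% in effectors, below the 11.7% of all protein-coding genes, and 14.2% in GAPs and 15% in the prenylation group, near it.

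Other small GTPases stood near the Rab genes. In groups drawn by symbol after the data had been seen, 12 of 23 ARF-type genes with a cluster had an enriched one (52.2%). So did 9 of 15 Ras-type genes (60%), beside 63.4% of Rab genes and 34.0% of all protein-coding genes with a cluster. The shares of enriched clusters were 38.4% and 37.2%, each above the 31.0% of the Rab genes and the 11.7% over all protein-coding genes. The high share is therefore not particular to Rab genes in these values.

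Clusters on marker genes of cell types were also counted. Without an expression level, these counts cannot check the labelled cell type. Of 12 neural progenitor markers, 11 had a cluster and 7 an enriched one (63.6%, against 34.0% of all protein-coding genes with a cluster). Among the 7 were Nes (highest log2 fold 3.37), Sox2 (3.62) and Slc1a3 (6.81). Pax6 (1.56), Vim (1.65), Hes1 (2.44) and Notch1 (3.50, at a −log10 p of 2.79) had no enriched cluster, and Prom1 had no cluster. Glial markers had a cluster in 7 of 8 genes, all 7 enriched, with Gja1 highest at 6.87. Neuronal markers had one in 5 of 8 genes, 3 of them enriched (60%). Rbfox3 (1.30) and Syn1 (1.78) had no enriched cluster, and Tubb3, Snap25 and Stmn2 had no cluster. The share of enriched clusters was 34.4% in progenitor, 78.5% in glial and 14.8% in neuronal markers, against 11.7% over all protein-coding genes. Among 9 genes that mark blood, vessels, fibroblasts or microglia, Pdgfrb alone had a cluster, at a log2 fold of 1.30. Genes of the glial and neuronal lists held clusters beside those of the progenitor list. Which cells these RNAs came from, and their part in the Rab values, was not tested.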

How the data were processed

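Per the submitters' processing notes, reads were handled with UMI-tools, cutadapt and STAR on mm10; for the cluster caller, fold formula and filters, nothing was given in the sources used here. The table deposited by the authors has no header and gives each cluster a −log10 p (capped at 400) and a log2 fold of immunoprecipitate over input, units read from the values. Library totals are unknown. Read counts were reconstructed by matching fold and p to whole reads at a library ratio of 2.03 (p within 0.05 or 1%). This succeeded for 356 of the 357 Rab clusters with a fold above 0. The ratio rests on an assumption: the commonest positive log2 fold, 0.56, was taken to mean 3 immunoprecipitate reads against 1 input read. The matching was tested on simulated data with a known ratio, which does not check that assumption. Clusters went to the RefSeq locus covering most of their bases on its strand. Strand came from the promoter table for 48 Rab loci and from the clusters for 5 (Rab18, Rab30, Rab2a, Rab4a, Rab36); the other 6 had no strand and no cluster. On annotated strands, 327 of 327 Rab clusters in no other locus lay on the gene's strand (88760 of 88921 over all protein-coding genes). In all, 19 Rab clusters also touch another locus. The 5 Rab pseudogene loci had 0 clusters.

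Described by rule are all Rab genes with an enriched cluster, those without one that have at least 5 clusters, and up to 5 enriched genes of each pathway list. The other members are named to account for them, by counts and ranges; the values of Rab3c, Rab3d, Rab24, Rabggta and Rabggtb, and those of the Rab34 cluster with a sequence, are given outside this rule and were chosen after they were seen. Some values of genes outside the Rab family are not reported here. Members, classes and lists were chosen with earlier results of these data known. No test was made, since each group has 1 library. Python 3.11.15, pandas 2.3.3, numpy 2.4.6, scipy 1.17.1 and matplotlib 3.10.9 were used. Alternatives changed the fold, p, distance, width, assignment and input count.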

Additional observations from a re-analysis of the deposited data

Results flagged for a closer look

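A signal lay outside the measurement that the Rab counts use. Past the annotated 3′ end of Rab22a, 8 clusters on its strand lay in no annotated locus, from 141 to 4194 nt beyond the end. One of them was enriched, at chr2:173702921-173703018, 735 nt past the end, with 25 immunoprecipitate reads and 1 input read and a log2 fold of 3.62 [1.01 to 8.98]. Another enriched cluster, with 64 reads against 2 and a log2 fold of 3.98, crossed the end itself. Rab22a was the one Rab locus with clusters of this kind, and 132 of the 973 clusters outside every locus were enriched (13.6%). Whether they belong to the Rab22a transcript was not tested.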

How the results depend on the processing

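Of the 29 alternatives tried on family counts and medians, 27 stayed on the same side or within 1.5 times the reported value. Where clusters with an input count of 1 were not called, 70 Rab clusters were enriched instead of 128, and 18 Rab genes instead of 26; Rab12, Rab14, Rab21, Rab23, Rab30, Rab39b, Rab40c and Rab43 lost their call. With a length-weighted mean in place of the highest cluster, the median log2 fold over Rab genes was 2.19 instead of 3.98, against 1.30 over all protein-coding genes. Without the 3 leading genes, Rab31, Rab1b and Rab7, 23 of 38 genes (60.5%) and 92 of 372 clusters (24.7%) were enriched. No paired analysis was possible because there was 1 immunoprecipitate and 1 input library.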

Other observations

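Of the 413 Rab clusters, 18 reached a log2 fold of 3 without a −log10 p of 3, and 12 reached that p without the fold. Of the 12, 4 belong to Rab6a, and the one farthest from the end was a Rab6b cluster at 9729 nt, with 59 reads against 6 and a log2 fold of 2.27. Of the 128 enriched Rab clusters, 36 (28.1%) belonged to Rab31, Rab1b and Rab7.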
